A study of Mus musculus with 12 samples.

Results

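The 10 genes described here encode 9 cytokine receptor chains and 1 transcription factor: the IL-12 receptor chains Il12rb1 and Il12rb2, the IL-18 receptor chains Il18r1 and Il18rap, the receptor chains Il21r, Il10ra and Il6ra, the IFN-γ receptor chains Ifngr1 and Ifngr2, and Stat4. They were taken by gene symbol, and all 10 were found among the 35855 genes of the 12 libraries and passed the low-count filter in every comparison. The libraries fall into 4 groups of 3. WT C57BL/6 mice and TCF-1 cKO mice on the C57BL/6 background gave CD8 T cells sorted from spleen before transplant. In the TCF-1 cKO mice the floxed gene Tcf7, which encodes the transcription factor TCF-1, is cut by Cre driven from the Cd4 promoter, so that the loss begins in thymocytes and is not limited to CD8 T cells. For the day 7 groups, donor T cells of either genotype were given to lethally irradiated BALB/c mice, together with T cell-depleted WT bone marrow. This is a major mismatch that causes graft-versus-host disease. The authors' methods name the transplanted cells as CD3 T cells, while a figure legend describes CD8 T cells sorted for transplant. Donor CD8 T cells were sorted from the spleen of the recipients 7 days later by the donor class I molecule H2Kb. A source label of TCF-1 cKO day 7 replicate 2 names CD4 T cells, while its title names CD8 T cells. Its Cd4 level was 1.42 CPM and its Cd8a level 432 CPM (counts per 1e+06 counts of the library), and it was kept with the CD8 T cells.

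IL-12 and IL-18 are made by antigen-presenting cells and act together on activated T cells. The IL-12 receptor signals through JAK2 and TYK2 to STAT4, which drives Ifng, while the IL-18 receptor belongs to the IL-1 receptor family and signals through MYD88 to NF-κB. IL-21, IL-6 and IL-10 act mainly through STAT3, and IFN-γ acts on its own receptor through JAK1 and JAK2. These cytokines all take part in the inflammation of graft-versus-host disease.

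Several libraries went against their labels. The targeted gene Tcf7 stood at 152, 115 and 205 CPM in the pre-transplant WT libraries and at 56.8, 78.9 and 97.1 CPM in those of TCF-1 cKO. At day 7 it was at 17.2, 12.1 and 6.89 CPM in WT and at 8.999, 9.48 and 9.31 CPM in TCF-1 cKO, so that the library labelled WT day 7 replicate 3 had less Tcf7 than any TCF-1 cKO library of the same day. All 6 libraries labelled pre-transplant CD8 T cells held abundant transcripts of other cells. In them Cd8a was at 47.7 to 199.97 CPM, and the summed level of the B cell markers was 11591 to 21092 CPM against 900.4 to 2600 CPM for 8 CD8 T cell markers. At day 7 Cd8a was at 308 to 475 CPM, the B cell markers at 239 to 485 CPM and the CD8 T cell markers at 5866 to 7787 CPM. Macrophage and monocyte markers (8 genes) summed to 1471 to 2987 CPM before transplant and 80.0 to 205 CPM at day 7, and erythroid markers (6 genes) to 4459 to 26445 CPM and 205 to 1193 CPM. No marker of these lists was at 0 in every library. In bulk libraries fewer cells of a type and less RNA per cell cannot be told apart. The day 7 comparison of genotypes does not use the pre-transplant libraries and is therefore given before the others.

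At day 7, 3 receptor chains were lower in TCF-1 cKO than in WT cells. They were Il12rb1, Il21r and Il10ra, 3 of the 10 members, where 15.4% of the 16026 genes tested were called lower and 2.51% higher at a false discovery rate (FDR) below 0.1 (edgeR quasi-likelihood test with Benjamini-Hochberg adjustment over all genes). No member was called higher. Il18r1 and Il18rap lay above WT in all libraries without passing the test. In all, 5 of the 10 members had group ranges without overlap, where 40.8% of all genes tested had.

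Il12rb1 encodes the chain shared by the receptors for IL-12 and IL-23 (GRCm38 chromosome 8, 70808449 to 70821424). Its level, in CPM of the TMM-normalised library total (normalised CPM), was 293, 666 and 106 in WT day 7 and 47.5, 28.7 and 56.4 in TCF-1 cKO day 7. The groups did not overlap, and the library labelled WT day 7 replicate 3 was the WT library closest to TCF-1 cKO. The fold change was 10.02-fold lower (log2 fold change -3.33 ± 0.74 SE, n = 3 per group, edgeR adjusted p = 0.0448). Before transplant the libraries spread widely, at 3.46, 45.7 and 15.9 in WT and 7.21, 5.41 and 26.4 in TCF-1 cKO, and overlapped (log2 fold change -0.62 ± 0.82, adjusted p = 0.678).

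Il12rb2 encodes the chain that binds STAT4 and limits the response to IL-12 in T cells (chromosome 6, 67291318 to 67376188). It was at 11.5, 0.858 and 24.1 normalised CPM in WT day 7 and at 25.7, 21.8 and 23.6 in TCF-1 cKO day 7. WT replicate 2 held only 11 counts of the gene, while the 3 TCF-1 cKO libraries lay close together inside the WT range or just above it. The difference did not pass the test (log2 fold change 0.78 ± 0.87, 95% interval -0.93 to 2.50, edgeR adjusted p = 0.583). The region before its start on the minus strand is shown because it holds the STAT motif searched (TTCNNNGAA, in capitals), which 7.02% of the 32851 RefSeq promoters of the same length hold. The 250 bases lie at chr6:67376189-67376438 (GRCm38.p6) and are written 5′ to 3′ in the direction of the gene.
Il12rb2: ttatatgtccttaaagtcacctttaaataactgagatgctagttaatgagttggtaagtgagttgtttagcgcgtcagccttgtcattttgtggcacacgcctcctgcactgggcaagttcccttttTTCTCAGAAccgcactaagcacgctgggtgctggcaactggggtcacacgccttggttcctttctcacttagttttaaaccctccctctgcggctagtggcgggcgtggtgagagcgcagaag

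Il21r and Il10ra showed the same order of groups at day 7 as Il12rb1. Il21r, which encodes the IL-21 receptor and pairs with the common γ chain (chromosome 7, 125603429 to 125633570), was at 226, 429 and 87.6 normalised CPM in WT and 65.0, 45.5 and 28.4 in TCF-1 cKO. The ranges did not overlap, and the library labelled WT day 7 replicate 3 was again nearest to TCF-1 cKO. The gene was 6.64-fold lower (log2 fold change -2.73 ± 0.69, edgeR adjusted p = 0.0475). Il10ra, the ligand-binding chain of the IL-10 receptor (chromosome 9, 45253837 to 45269149), was at 106, 172 and 105 in WT and 52.0, 23.2 and 27.4 in TCF-1 cKO. Every TCF-1 cKO library lay below every WT library, and the gene was 4.57-fold lower (log2 fold change -2.19 ± 0.50, adjusted p = 0.0448). Before transplant both genes overlapped between genotypes, since TCF-1 cKO replicate 3 was level with WT. Il21r was then at 282, 229 and 243 in WT and 81.0, 48.2 and 244 in TCF-1 cKO, and Il10ra at 128, 136 and 171 in WT and 38.8, 55.9 and 169 in TCF-1 cKO.

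Il18r1 and Il18rap encode the ligand-binding chain and the accessory chain of the IL-18 receptor, and both are needed for the signal. They are neighbours on the plus strand of chromosome 1 (40465552 to 40500854 and 40515362 to 40551705), with 14507 bases between them. Il18r1 was at 47.2, 30.8 and 105 normalised CPM in WT day 7 and at 158, 107 and 185 in TCF-1 cKO day 7. Every TCF-1 cKO library lay above every WT library, but the library labelled WT day 7 replicate 3 was within 2 units of the lowest of them (105.2 against 107.1). The difference did not pass the test (log2 fold change 1.10 ± 0.51, edgeR adjusted p = 0.201). Il18rap was at 133, 81.8 and 170 in WT day 7 and at 346, 269 and 450 in TCF-1 cKO day 7, again with no overlap (log2 fold change 1.23 ± 0.44, adjusted p = 0.112). Before transplant the order of Il18rap was the opposite, at 33.5, 16.7 and 37.3 in WT and 16.6, 15.4 and 7.94 in TCF-1 cKO. The lowest WT and the highest TCF-1 cKO library differed there by less than 1 unit (16.7 and 16.6).

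Stat4 encodes the factor that the IL-12 receptor activates (chromosome 1, 51987148 to 52107189). It was at 143, 51.2 and 186 in WT day 7 and at 316, 183 and 273 in TCF-1 cKO day 7. The ranges overlapped by the library labelled WT day 7 replicate 3, which at 186 lay just above the lowest TCF-1 cKO library. The difference did not pass the test (log2 fold change 0.77 ± 0.52, edgeR adjusted p = 0.361).

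Regions before the starts of these 3 genes of chromosome 1 are shown for 2 reasons. Their group means of normalised CPM were highest in TCF-1 cKO day 7, and RefSeq gives them starts that hold a motif searched. None of the 3 passed the test between genotypes at day 7, and whether the motifs are used was not tested. The capitals mark TTCNNNGAA (STAT) in Il18r1, and a TCF/LEF motif (CTTTG followed by AA, AT, TA or TT, on either strand) in Il18rap and Stat4. They come from RefSeq on GRCm38.p6, are 250 bases long and are written 5′ to 3′ on the plus strand. Il18r1 has 3 RefSeq starts, of which the region at chr1:40465756-40466005 holds the motifs at -219 and -152 bases and the other two hold none. The region of Il18rap is chr1:40515112-40515361, with the motif on the minus strand at -241. Of the 2 regions of Stat4, chr1:52007990-52008239 holds the motif at -130 and the other none.
Il18r1: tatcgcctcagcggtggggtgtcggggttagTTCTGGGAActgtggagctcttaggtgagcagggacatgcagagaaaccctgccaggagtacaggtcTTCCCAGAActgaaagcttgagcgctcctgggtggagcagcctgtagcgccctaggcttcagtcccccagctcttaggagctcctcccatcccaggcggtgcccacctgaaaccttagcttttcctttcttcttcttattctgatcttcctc
Il18rap: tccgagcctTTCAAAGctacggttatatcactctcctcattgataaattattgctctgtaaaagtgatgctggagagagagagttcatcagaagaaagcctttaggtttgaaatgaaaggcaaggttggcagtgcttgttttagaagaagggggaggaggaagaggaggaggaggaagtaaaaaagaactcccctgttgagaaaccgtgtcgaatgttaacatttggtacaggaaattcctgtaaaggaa
Stat4: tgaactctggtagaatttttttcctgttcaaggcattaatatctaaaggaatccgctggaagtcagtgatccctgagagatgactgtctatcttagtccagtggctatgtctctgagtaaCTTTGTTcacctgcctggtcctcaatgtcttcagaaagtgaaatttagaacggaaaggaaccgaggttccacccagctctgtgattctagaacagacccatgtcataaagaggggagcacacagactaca
A TCF/LEF motif is held by 14.8% of the 32851 RefSeq promoters, so a match of this kind is common. Regions were given for 8 of the 10 members, Il12rb1 and Il10ra not among them. Those of Il6ra, Il21r, Ifngr1 and Ifngr2 held none of the motifs searched, and no member held the T-box motif GGTGTGA, which 3.33% of promoters hold.

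Ifngr1, Ifngr2 and Il6ra did not separate by genotype at day 7. Ifngr1, the ligand-binding chain of the IFN-γ receptor (chromosome 10, 19591949 to 19610229), was at 381, 242 and 382 normalised CPM in WT and 301, 378 and 217 in TCF-1 cKO (log2 fold change -0.41 ± 0.44, edgeR adjusted p = 0.573). Ifngr2, its signalling partner that carries JAK2 (chromosome 16, 91547072 to 91565623), was low in all 6 libraries, at 1.11, 1.72 and 4.45 in WT and 2.80, 1.88 and 1.98 in TCF-1 cKO. These levels rest on 22 to 52 counts per library. Il6ra, the IL-6-binding chain (chromosome 3, 89864059 to 89913196), was at 2.89, 1.79 and 4.27 in WT and 3.85, 2.83 and 5.44 in TCF-1 cKO, from 23 to 88 counts. The 95% intervals of the log2 fold change were -1.63 to 1.05 for Ifngr2 and -0.95 to 1.36 for Il6ra.

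**Figure D1:**
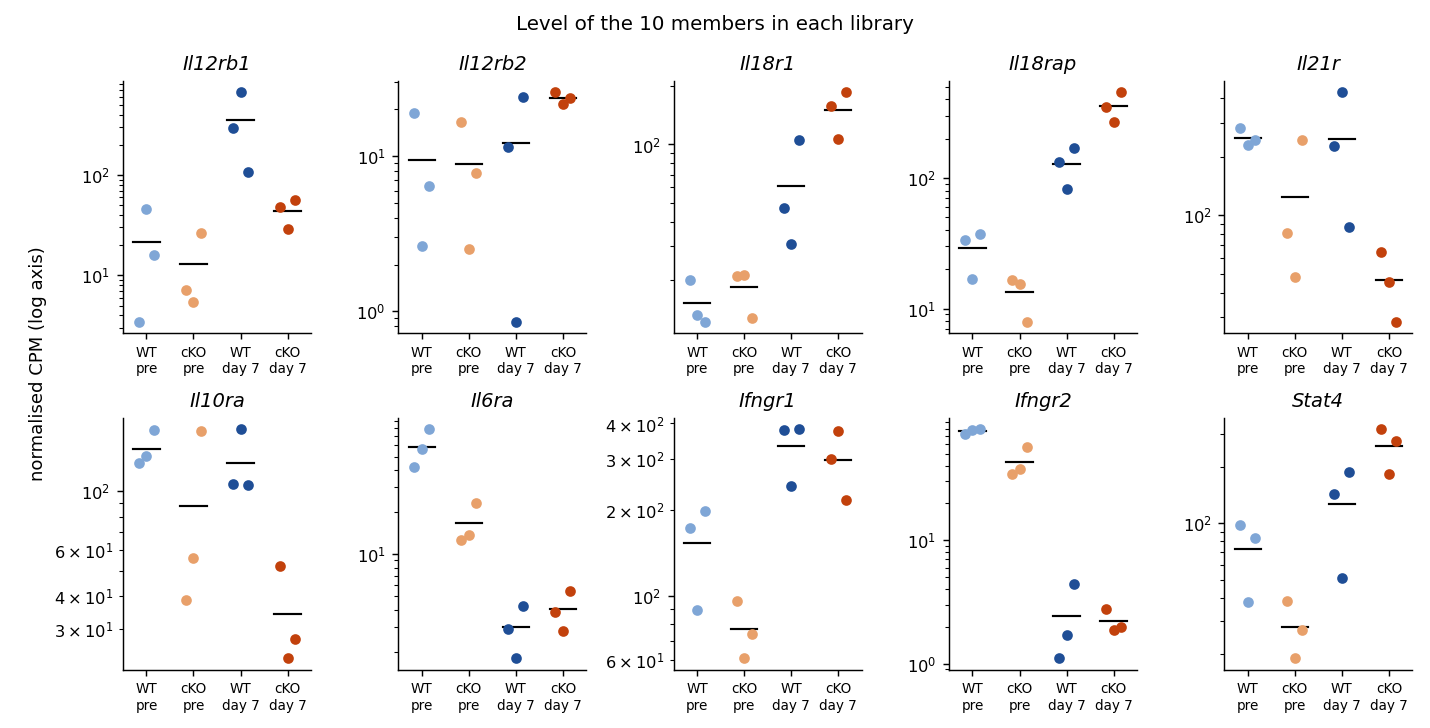
Level of each member in each library, in normalised CPM on a log axis with its own range in each panel, for WT and TCF-1 cKO before transplant (pre) and at day 7. Points are libraries and lines are group means. At day 7 the TCF-1 cKO points of Il12rb1, Il21r and Il10ra lie below those of WT and the points of Il18r1 and Il18rap lie above, while Ifngr2 and Il6ra are low in both genotypes.

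The day 7 differences moved with other measures. Markers of 3 other cell types separated by genotype without overlap. The B cell markers (9 genes) summed to 406 to 485 CPM in WT and 239 to 369 CPM in TCF-1 cKO, the CD4 T cell markers (4 genes) to 9.87 to 50.3 and 3.82 to 8.98 CPM, and the neutrophil markers (5 genes) to 26.8 to 74.3 and 87.8 to 323 CPM. Their part in the differences between genotypes was not tested. A further measure was the GC content of the transcripts. Over all genes tested the median log2 fold change of TCF-1 cKO against WT fell from 0.67 in the decile of lowest GC content to -2.45 in the decile of highest GC content. Il12rb1 (56.8% GC), Il21r (55.0%) and Il10ra (53.1%) have the highest GC content of the 10 members, and Stat4 (42.7%), Il18r1 (44.9%) and Il18rap (45.1%) the lowest. Beside genes within 1 percentage point of the same GC content, the log2 fold change of Il12rb1 was -3.33 against a median of -1.9997, that of Il21r -2.73 against -1.34 and that of Il10ra -2.19 against -0.71. Il18rap was at 1.23 against 0.67, Il18r1 at 1.10 against 0.68 and Stat4 at 0.77 against 0.80. With an offset for GC content and length, Il10ra remained called (log2 fold change -1.65, adjusted p = 0.0855), and Il12rb1 (-1.38, adjusted p = 0.115) and Il21r (-1.44, adjusted p = 0.113) were not. The part of GC content in the differences between genotypes was not tested.

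The calls at day 7 also turned on the library labelled WT day 7 replicate 3. Without it, 5 of the 10 members were called, Il12rb1 (log2 fold change -3.83, edgeR adjusted p = 0.00164), Il21r (-3.21, 0.00279) and Il10ra (-2.44, 0.00848) as lower, and Il18r1 (1.503, 0.0563) and Il18rap (1.29, 0.0758) as higher. In the same fit 3531 of the 18183 genes tested were called lower and 1768 higher, so calls rose over all genes. Without any other library of the 6, no member was called, where 0 to 2 of the 16667 to 17877 genes tested were, so calls fell over all genes. The edgeR adjusted p-values rose to at most 0.178 for Il12rb1, 0.187 for Il21r and 0.181 for Il10ra while the log2 fold changes stayed at or below -1.94. A fit without 1 library takes the remaining pair to vary like the other group.

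**Figure D2:**
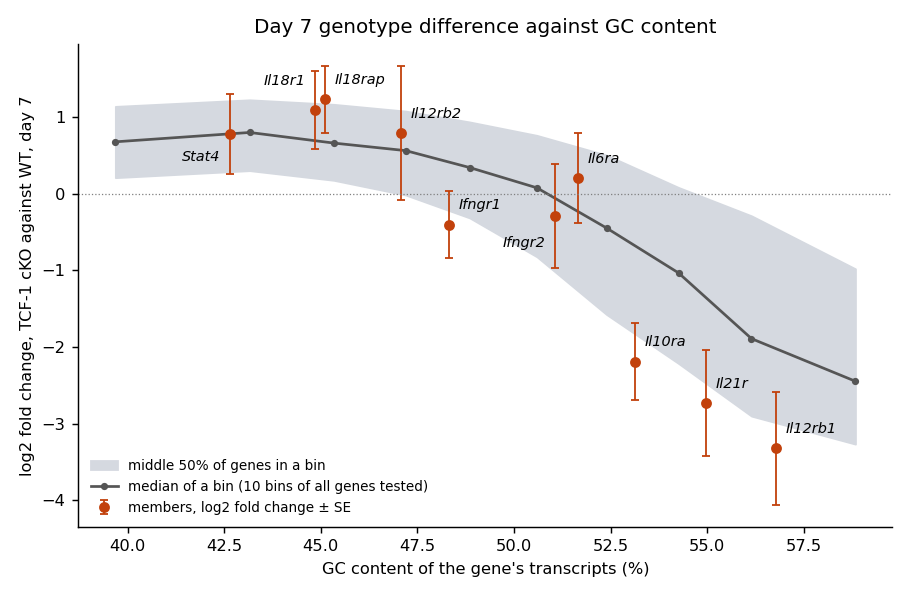
Log2 fold change of TCF-1 cKO against WT at day 7 against the mean GC content of a gene's transcripts in percent. The line and band give the median and the middle 50% of all genes tested in 10 bins, and the points the 10 members ± SE. The median falls from 0.67 to -2.45 as GC content rises, and Il12rb1, Il21r and Il10ra lie below the median of their GC range.

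Before transplant no member was called between genotypes, where 0.016% of 18757 genes were called higher and 0.0213% lower. Without overlap were 3 members, Il18rap, Il6ra and Ifngr2, all lower in TCF-1 cKO, where 30.3% of all genes tested had ranges without overlap. Il6ra was at 42.2, 56.3 and 78.5 normalised CPM in WT and 12.7, 13.8 and 23.4 in TCF-1 cKO (log2 fold change -1.63 ± 0.46, edgeR adjusted p = 0.199). Ifngr2 was at 72.3, 78.5 and 79.3 in WT and 34.6, 37.5 and 57.2 in TCF-1 cKO (log2 fold change -0.63 ± 0.40, adjusted p = 0.394). Stat4, at 97.3, 37.7 and 83.1 in WT and 38.3, 19.0 and 26.8 in TCF-1 cKO, overlapped by 1 library (log2 fold change -1.14 ± 0.49, adjusted p = 0.265). The 95% interval of the log2 fold change was -0.50 to 1.56 for Il18r1 and -1.48 to 1.81 for Il12rb2, the 2 members with values above 0. In these groups the CD8 T cell markers summed to 2234 to 2600 CPM in WT and 900.4 to 1257 CPM in TCF-1 cKO, a ratio of 0.447. Relative to those markers none of the 10 members was lower without overlap, and Il18r1 (log2 difference 2.001 ± 0.61 SE) and Ifngr2 (0.86 ± 0.14) were higher without overlap in TCF-1 cKO (exact permutation p = 0.1 each, the smallest that 3 libraries against 3 can give). The direction of every pre-transplant difference between genotypes other than that of Il6ra, Il12rb2 and Il18r1 turned on this scale. Counts without overlap over all genes were not taken on it. Without TCF-1 cKO pre-transplant replicate 3, edgeR on TMM-normalised counts called 3 members lower before transplant, Il21r (log2 fold change -1.80, adjusted p = 0.0210), Il10ra (-1.44, 0.0469) and Il6ra (-1.99, 0.0364). In the same fit 1922 of the 21575 genes tested were called lower and 817 higher.

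From before transplant to day 7, 5 members were called in WT and 7 in TCF-1 cKO. In both genotypes Il12rb1, Il18r1 and Il18rap were higher and Il6ra and Ifngr2 lower at day 7. In TCF-1 cKO, Ifngr1 and Stat4 were called higher too. In WT 3 of 10 members were called higher, where 9.7% of 16790 genes were, and 2 lower, where 10.3% were. Ranges without overlap were seen for 6 members, where 32.2% of genes had them. In TCF-1 cKO 5 members were called higher, where 19.7% of 18535 genes were, and 2 lower, where 16.8% were, and 8 had ranges without overlap, where 46.9% of genes had. The median log2 fold change of the 10 members was 0.33 in WT and 1.58 in TCF-1 cKO, beside -0.30 and -0.29 over all genes tested.

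Ifngr2 and Il6ra were the members called lower at day 7 on TMM-normalised counts. Ifngr2 went from 72.3 to 79.3 normalised CPM in the 3 WT libraries before transplant to 1.11 to 4.45 at day 7, 39.3-fold lower (log2 fold change -5.30 ± 0.70, edgeR adjusted p = 0.00176). In TCF-1 cKO it went from 34.6 to 57.2 down to 1.88 to 2.80 (log2 fold change -4.28 ± 0.46, adjusted p = 0.000229). Il6ra was 23.6-fold lower in WT (log2 fold change -4.56 ± 0.66, adjusted p = 0.00258) and 4.11-fold lower in TCF-1 cKO (-2.04 ± 0.51, adjusted p = 0.0154). No group of libraries overlapped with its counterpart for either gene. Over the same libraries the B cell markers fell from at least 11591 to at most 485 CPM. The macrophage and monocyte markers fell from at least 1471 to at most 205 CPM. Stage and cell content changed together in these libraries, and their parts in the fall of Ifngr2 and Il6ra were not tested. Among 8825 protein-coding genes, the profiles over the 12 libraries most like that of Ifngr2 were those of Cd40, Sdc4 and Csf3r (root mean square difference 0.41 to 0.48 on the log2 scale), and those most like Il6ra were Itpr2, Tet3 and Flt3 (0.35 to 0.49). Relative to the CD8 T cell markers both genes were lower still at day 7, by log2 differences of -8.01 and -8.40 for Ifngr2 and -7.13 and -6.19 for Il6ra in WT and TCF-1 cKO.

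Among the members that were higher at day 7, Il18rap changed the most in TCF-1 cKO, from 16.6, 15.4 and 7.94 to 346, 269 and 450 normalised CPM, 26.5-fold (log2 fold change 4.73 ± 0.47, edgeR adjusted p = 0.000167). In WT it went from 33.5, 16.7 and 37.3 to 133, 81.8 and 170, 3.69-fold (1.88 ± 0.55, adjusted p = 0.0481). Il18r1 went from 20.1, 13.2 and 12.2 to 47.2, 30.8 and 105 in WT (1.73 ± 0.61, adjusted p = 0.0896) and from 20.9, 21.2 and 12.8 to 158, 107 and 185 in TCF-1 cKO (3.02 ± 0.41, adjusted p = 0.000744). Stat4 was 9.11-fold higher in TCF-1 cKO (3.19 ± 0.43, adjusted p = 0.000651) and overlapped between stages in WT (0.56 ± 0.61, adjusted p = 0.599). Il12rb1 was 13.7-fold higher at day 7 in WT (3.78 ± 0.98, adjusted p = 0.0289) and 3.40-fold in TCF-1 cKO (1.76 ± 0.62, adjusted p = 0.0618). Ifngr1 was 3.86-fold higher in TCF-1 cKO (1.95 ± 0.38, adjusted p = 0.00447), from 96.3, 60.8 and 73.7 to 301, 378 and 217, and did not pass the test in WT (0.89 ± 0.50, adjusted p = 0.282). Il21r, Il10ra and Il12rb2 were not called in either genotype. In WT the call of Il18r1 held only without WT day 7 replicate 2, that of Il18rap only without WT day 7 replicate 2 or the library labelled replicate 3, and that of Il12rb1 without any single library other than WT pre-transplant replicate 3. In TCF-1 cKO the call of Il12rb1 held only without pre-transplant replicate 3 or day 7 replicate 2, and those of Il18r1, Il18rap, Ifngr1, Ifngr2, Il6ra and Stat4 held without each library in turn.

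These increases depended on the scale. The CD8 T cell markers, as a sum, were themselves 3.00-fold higher at day 7 in WT and 5.89-fold in TCF-1 cKO. Single markers did not move alike. In TCF-1 cKO Cd3e went from 76.9, 54.9 and 107 CPM to 119, 105 and 102. Cd3g went from 98.7, 91.6 and 79.9 to 2044, 1513 and 2346. At day 7 Lck was at 3345, 3726 and 1261 CPM in WT and 529, 1237 and 447 in TCF-1 cKO. Values on this scale therefore depend on which markers make up the sum, and other choices of markers were not tested. Relative to the summed counts of the 8 markers, Il18r1 was lower at day 7 in both genotypes (log2 differences -0.95 ± 0.81 SE in WT and -1.13 ± 0.61 in TCF-1 cKO), with ranges that overlapped. Stat4 was lower on this scale without overlap (-2.09 ± 0.92 and -0.94 ± 0.43, exact permutation p = 0.1 each), as was Ifngr1 (-1.63 ± 0.58 and -2.22 ± 0.41, exact permutation p = 0.1 each). Il18rap stood at -0.65 ± 0.67 in WT and 0.61 ± 0.69 in TCF-1 cKO and overlapped in both. Il12rb1 kept its direction in WT (1.53 ± 1.19, with overlap) and turned in TCF-1 cKO (-2.09 ± 0.49, without overlap). Il21r (-3.10 ± 0.43 in WT and -5.33 ± 0.47 in TCF-1 cKO) and Il10ra (-3.01 ± 0.14 and -5.32 ± 0.49), not called on TMM-normalised counts, were lower without overlap in both genotypes. In all, 6 members in WT and 8 in TCF-1 cKO were lower at day 7 without overlap relative to the markers, and none was higher. The rise of the markers (log2 differences 1.58 in WT and 2.57 in TCF-1 cKO) lowers every gene on this scale. The matching counts over all genes were not taken, so these counts do not set the members apart from other genes. With library totals in place of TMM factors, the median of all genes moved to -1.25 in WT and -1.89 in TCF-1 cKO. Then 1 member was called higher in WT and 3 in TCF-1 cKO, and 4 were called lower in each. Over all genes 717 were called higher and 4136 lower of 16790 in WT, and 1660 higher and 10608 lower of 18535 in TCF-1 cKO. The share of the stage differences that other cells account for was not tested.

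**Figure D3:**
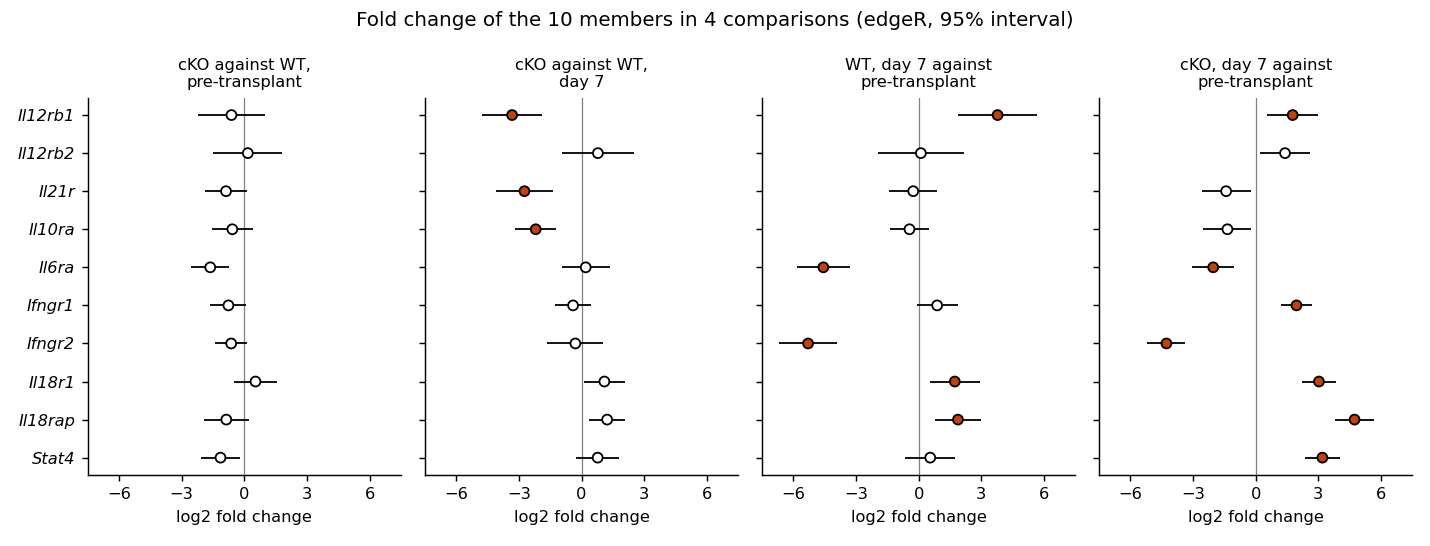
Log2 fold change of the 10 members in the 4 comparisons, from edgeR. Points are estimates, lines span the 95% interval, and filled points passed an FDR below 0.1. No member passed between genotypes before transplant, 3 passed at day 7, and 5 in WT and 7 in TCF-1 cKO passed between the stages.

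**Figure D4:**
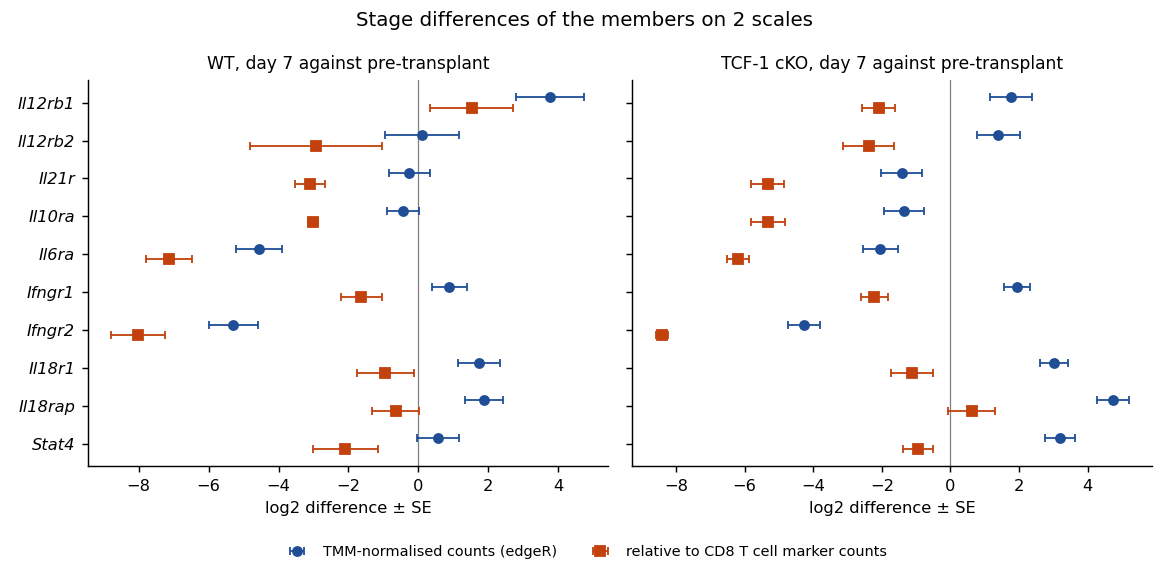
Log2 difference of day 7 against pre-transplant for each member in WT and TCF-1 cKO, with its SE, from TMM-normalised counts and from counts relative to the summed counts of 8 CD8 T cell markers. Ifngr2 and Il6ra lie below 0 on both scales, while Il18r1, Stat4 and Ifngr1 lie above 0 on the first and below 0 on the second.

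An interaction term, fitted across the 4 groups, asked whether the genotypes differed more at 1 stage than at the other. No member was called, where 0.00465% of 21526 genes were. In the edgeR fit 3 of the 10 members had an unadjusted p under 0.05, where 3377 of the 21526 genes tested had. They were Il18rap (log2 difference of differences 2.61 ± 0.69, adjusted p = 0.233), Stat4 (2.39 ± 0.76, adjusted p = 0.235) and Il6ra (2.26 ± 0.75, adjusted p = 0.238). DESeq2 called these 3 (adjusted p = 0.0155, 0.0466 and 0.0384), and so did edgeR without the library labelled WT day 7 replicate 3 (adjusted p = 0.0509, 0.0636 and 0.0757). Over all genes DESeq2 called 1713 of 21526 and edgeR without that library 2093 of 23972.

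The 2 chains of a receptor can be compared within a library, on the TPM scale, which is per transcript length. At day 7 the log2 ratio of Il12rb2 to Il12rb1 was -4.67, -9.69 and -2.33 in WT and -1.11, -0.66 and -1.35 in TCF-1 cKO. Every TCF-1 cKO library lay above every WT library, with group means of -1.04 and -5.56 (exact permutation p = 0.1, the smallest this design allows, and 0.24 after Benjamini-Hochberg adjustment over 12 ratio tests). The ratio of Ifngr2 to Ifngr1 went from -1.27 ± 0.56 (SD, n = 3) before transplant to -6.98 ± 1.65 at day 7 in WT and from -1.75 ± 0.89 to -7.51 ± 0.42 in TCF-1 cKO, without overlap in either (exact permutation p = 0.1, adjusted p = 0.24). In this pair Ifngr2 fell much more than Ifngr1 changed. The ratio of Il18rap to Il18r1 was 0.42 ± 0.50 in WT and -0.64 ± 0.08 in TCF-1 cKO before transplant, without overlap (exact permutation p = 0.1, adjusted p = 0.24), and 0.46 ± 0.35 and 0.39 ± 0.09 at day 7, with overlap.

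**Figure D5:**
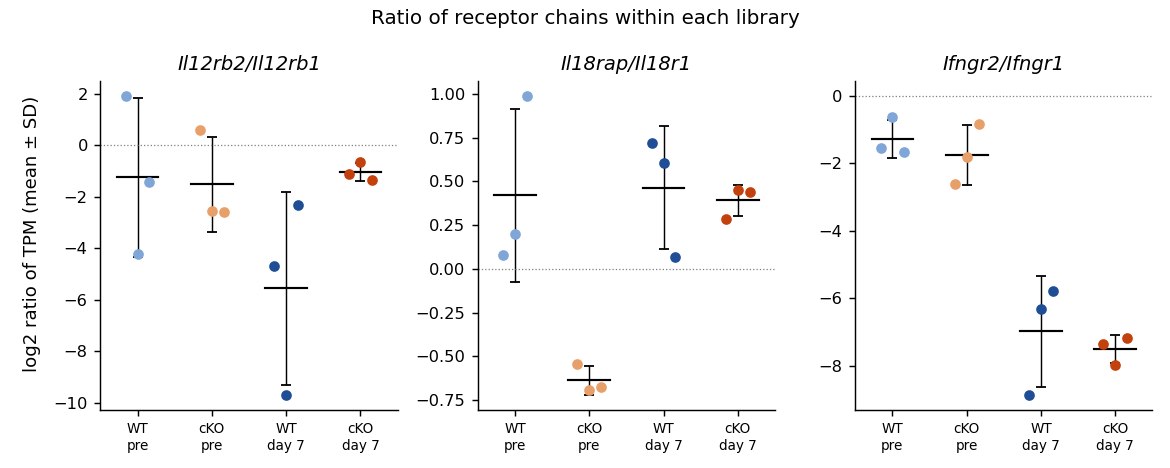
Log2 ratio of the TPM of 2 receptor chains within each library, for the IL-12, IL-18 and IFN-γ receptors. Points are libraries, bars are the mean ± SD of 3 libraries, and the dotted line marks equal TPM. At day 7 the Il12rb2 to Il12rb1 ratio is higher in TCF-1 cKO than in WT, and the Ifngr2 to Ifngr1 ratio is near -7 in both genotypes.

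Per length, the order of the members differed between groups. In WT pre-transplant the TPM was highest for Il21r (154 ± 17.9), then Ifngr1 (107 ± 32.2), Il10ra (56.9 ± 6.28) and Ifngr2 (42.9 ± 2.42), and these neighbours did not overlap. In WT day 7 Ifngr1 (89.3 ± 32.7), Il12rb1 (61.8 ± 39.9), Il21r (52.7 ± 30.8) and Stat4 (29.8 ± 16.4) led, and each overlapped with the next. In TCF-1 cKO day 7 the order was Ifngr1 (77.0 ± 23.4), Stat4 (50.3 ± 10.8), Il18rap (35.6 ± 7.70) and Il18r1 (27.1 ± 5.47), with overlap between neighbours, and the gap from Il18r1 to Il21r (9.61 ± 3.57) was without overlap. Ifngr2 and Il6ra were the lowest in both day 7 groups, at 0.910 ± 0.810 and 0.189 ± 0.087 in WT and 0.411 ± 0.029 and 0.269 ± 0.074 in TCF-1 cKO.

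The transcripts behind these levels differed between groups for some members. Ifngr2 counts before transplant came mainly from the main coding transcript, with 94.2% ± 1.45 (SD, n = 3) in WT and 94.3% ± 5.57 in TCF-1 cKO. At day 7 this share was 42.8% ± 34.7 in WT and 15.1% ± 26.1 in TCF-1 cKO, where the noncoding Ifngr2-203 took 84.9% ± 26.1. For Il6ra, the transcript Il6ra-202 took 22.6% ± 4.07 in WT pre-transplant and 92.7% ± 9.35 in WT day 7. Both genes had few counts at day 7. Il18rap counts were almost all from the main coding transcript at day 7, 96.7% ± 0.55 in WT and 97.5% ± 0.57 in TCF-1 cKO, while before transplant a retained-intron transcript, Il18rap-202, took 15.1% ± 11.6 in WT and 42.3% ± 12.9 in TCF-1 cKO. For Il12rb1 a retained-intron transcript likewise took 54.2% ± 23.996 in TCF-1 cKO pre-transplant, and the main coding transcript took 91.0% ± 3.76 in WT day 7 and 79.9% ± 10.4 in TCF-1 cKO day 7. At day 7 the Ifngr1 counts held 24.7% ± 0.79 in WT and 38.6% ± 17.1 in TCF-1 cKO of Ifngr1-203, a transcript annotated for nonsense-mediated decay. The main transcripts of Il21r, Il10ra, Stat4, Il18r1 and Il12rb2 were coding and took 61.6% to 99.3% of counts on average in every group.

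The pathway around the members was read from a list of 76 genes, which shared none of the members. At day 7, 70 were tested between genotypes, of which 2 were called higher and 27 lower in TCF-1 cKO, where 2.51% and 15.4% of all genes tested were. These 29 calls came down to 13 with the offset for GC content and length and to 0 with that offset and a replicate block. Over all 16026 genes tested, calls came down from 2868 to 1059 and to 2 in the same settings. Without 1 library the list had 35 calls when the library labelled WT day 7 replicate 3 was left out, and 0 when any other of the 6 was. Without the library labelled WT day 7 replicate 3, 5299 of all 18183 genes tested were called, and without any other 0 to 2 of 16667 to 17877. Of 14 JAK kinases, STATs and receptor adaptors 10 were lower, among them Jak3, the kinase of the common γ chain (log2 fold change -4.40 ± 0.99, edgeR adjusted p = 0.0448), and Stat3, which IL-21, IL-6 and IL-10 activate (-2.21 ± 0.51, adjusted p = 0.0448). Of 9 feedback inhibitors 6 were lower, among them Socs1 (-3.77 ± 0.82, adjusted p = 0.0448) and Socs3 (-2.78 ± 0.74, adjusted p = 0.0520), and none was higher. Of 9 other receptor chains tested 2 were lower, Il27ra (-3.18 ± 0.75, adjusted p = 0.0448) and Il2rg, the common γ chain that Il21r needs (-1.86 ± 0.51, adjusted p = 0.0552). Of 11 STAT4 and IL-12 target genes tested, Tbx21 (-3.10 ± 0.68, adjusted p = 0.0448), which encodes T-bet, and Prf1, which encodes perforin (-2.96 ± 0.67, adjusted p = 0.0448), were lower, and Ifng was higher (1.70 ± 0.52, adjusted p = 0.0773), at 167 ± 52.2 normalised CPM in TCF-1 cKO and 45.8 ± 25.8 in WT (SD, n = 3). Ifng is the only one of 7 ligands and soluble antagonists tested that was called. Of 13 IFN-γ target genes 4 were lower, with Tap1, Psmb9 and Irf8 among them, and 1, Iigp1, was higher (1.69 ± 0.47, adjusted p = 0.0590). Of 9 STAT3 target genes 3 were lower, Junb, Bcl3 and Pim1. As a median, the log2 fold change of the tested genes came to -2.08 for the kinases, STATs and adaptors, -2.24 for the inhibitors and -0.25 for the STAT4 and IL-12 targets, beside 0.15 over all genes tested, and these lists stand under the same trend with GC content as the members.

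Between stages, of the 12 STAT4 and IL-12 target genes 5 were called higher and 7 not called in WT, where 9.7% of all genes tested were higher. In TCF-1 cKO 7 were higher, 1 lower and 4 not called, where 19.7% of all genes tested were higher. Over the whole list 19 of 73 genes tested were called in WT, where 3362 of all 16790 genes tested were. In TCF-1 cKO 37 of 75 were called, where 6774 of all 18535 were. Without WT pre-transplant replicate 1, 2 or 3 the WT count was 11, 12 or 7, where 1945, 2134 or 1579 of all genes tested were called. Without WT day 7 replicate 1, 2 or the library labelled replicate 3 it was 10, 16 or 25, where 2043, 3293 or 4156 were. These fits tested 17747 to 18860 genes. In TCF-1 cKO the count was 29 to 41 without single libraries, where 5242 to 7114 of all genes tested were called. Gzmb, which encodes granzyme B, had log2 fold changes of 8.08 ± 0.90 in WT (edgeR adjusted p = 0.000873) and 9.28 ± 0.51 in TCF-1 cKO (adjusted p = 0.000105), and Ifng 3.70 ± 0.82 (adjusted p = 0.0156) and 6.60 ± 0.73 (adjusted p = 0.000244). Of the 13 IFN-γ targets 3 were higher in WT, and 6 were higher and 2 lower in TCF-1 cKO, where Igtp, Gbp2, Gbp3 and Gbp7 were among the former. Il12a, a subunit of IL-12 made by antigen-presenting cells, was lower in both, at 15.7 ± 3.83 and 9.20 ± 3.20 normalised CPM before transplant and 0.089 ± 0.086 and 1.15 ± 0.83 at day 7 in WT and TCF-1 cKO. Before transplant 74 genes of the list were tested between genotypes and none was called.

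The remaining members are described by the genes whose profiles over the 12 libraries lay nearest, by root mean square difference of centred log2 CPM. Il18rap was nearest to Atp5c1 (0.23), Ran (0.31) and Dpy30 (0.31), Il18r1 to Mrps22 (0.28), Rbmx2 (0.31) and Actr10 (0.32), and Stat4 to Gramd3 (0.30), Chmp3 (0.31) and Anp32e (0.31). Il21r was nearest to Tln1 (0.26), Icam1 (0.26) and Irf7 (0.27), and Il10ra to Cyfip2 (0.32), Hcfc1 (0.33) and Myh9 (0.33). Il12rb1 was nearest to Nrgn (0.42), Sapcd2 (0.63) and Ccnf (0.64), Ifngr1 to Lta4h (0.19), Tmem183a (0.20) and Rpa1 (0.24), and Il12rb2 to Ubxn2b (0.51), Mterf2 (0.52) and Tbpl1 (0.53). No member was among the 3 nearest genes of another.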

How the data were processed

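RNA-seq was measured in 12 libraries, grouped by their titles. The authors prepared SMART-Seq cDNA, pseudoaligned the reads with Kallisto 0.46.2 and deposited an estimated count per transcript, not scaled for depth or length. The authors also deposited TPM, which Kallisto scales for transcript length and depth. The submitters' processing notes name the build mm9. The transcript release is not given in the sources used here.

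For 116374 of 117497 transcripts a gene was found by identifier in GENCODE M21 (GRCm38), and coordinates are from that annotation. Gene counts were sums of estimated counts, rounded to whole numbers. Totals were 4520270 to 9577076 in TCF-1 cKO pre-transplant and 18184814 to 32657005 in the other groups. A floor of 3 counts was 0.0919 to 0.664 CPM over all libraries. Such floors cover counting error only, since reads carry no molecular identifiers. Counts were tested with edgeR 4.0.16 (TMM normalisation, filterByExpr, quasi-likelihood test), with Benjamini-Hochberg adjustment over all genes and an FDR of 0.1, the study's threshold. Every adjusted p in the text is from edgeR unless another tool is named. Receptor chain ratios were compared by two-sided exact permutation tests. Nothing states whether replicates came from separate animals in every group, so p-values measure the spread between these libraries.

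The members, the pathway and marker lists and the rules for named genes were chosen with earlier results of these data known. Genes named are the 10 members, Tcf7, markers, the called genes of the pathway list by smallest p (up to 4 a list and comparison), and the 3 genes with the nearest profile to each member among protein-coding genes with a mean of at least 10 CPM. Alternatives were the DESeq2 1.42.0 Wald test and size factors, library totals, no filter, CPM above 1 in 3 libraries, limma-voom, limma on log2(TPM + 1) (limma 3.58.1), counts scaled from TPM, a GC content and length offset (loess, span 0.4, degree 2), a replicate block, both together, 1 fit over all libraries, an FDR of 0.05, and each library left out. Scaling to the summed counts of 8 CD8 T cell markers was added after the data were seen. Fits were run in R 4.3.3, and tables and permutation tests in Python 3.11.15 with SciPy 1.17.1. Flow cytometry data were not analysed here.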

Additional observations from a re-analysis of the deposited data

Results flagged for a closer look

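On TMM-normalised counts the difference of Il18rap between genotypes pointed in opposite ways at the 2 stages. Every TCF-1 cKO library lay below every WT library before transplant (log2 fold change -0.86 ± 0.54 SE) and above every WT library at day 7 (1.23 ± 0.44). The nearest libraries before transplant were at 16.7 (WT) and 16.6 (TCF-1 cKO) normalised CPM. As TPM the pre-transplant ranges overlapped (6.80 to 12.4 in WT and 3.82 to 10.4 in TCF-1 cKO). They also overlapped in CPM of the library total (lowest WT 25.2, highest TCF-1 cKO 35.9). The change between the stages was 2.61 ± 0.69 on the log2 scale and did not pass the interaction test (edgeR adjusted p = 0.233). Relative to the CD8 T cell markers the pre-transplant difference was 0.61 ± 0.73, with overlap between genotypes, and the day 7 difference 1.88 ± 0.62, without overlap. Groups of 3 libraries are too small for the outlier test.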

How the results depend on the processing

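Whether replicate numbers of the labels pair the libraries was not settled. In no comparison did all 3 same-numbered pairs correlate above 0.1. At day 7 between genotypes they correlated at 0.117, 0.063 and 0.154, beside at most 0.017 with another number. With the replicate block, members called were 0 before transplant, 3 at day 7, 4 between stages in WT, 8 in TCF-1 cKO and 0 in the interaction. At day 7, where each number correlated best with its own, genes called under the block fell from 2868 to 2038, and with block and offset together to 2, with 0 members. Before transplant, where 7 genes and no member were called, DESeq2 called 1451 genes and 1 member (Il6ra), no filter 619 and 1 (Il6ra), limma on log2(TPM + 1) 129, library totals 12, the GC content and length offset 11, DESeq2 size factors and 1 fit over all libraries 3 each, limma-voom and an FDR of 0.05 2 each, and the block 0. At day 7 (2868 genes, 3 members), DESeq2 called 4524 genes, the offset 1059 and 1 member, limma on log2(TPM + 1) 5 members, and an FDR of 0.05 1396 genes. Between stages limma on log2(TPM + 1) called 6187 genes in WT (3362) and 12145 in TCF-1 cKO (6774), and library totals 12268 in TCF-1 cKO. In the interaction (1 gene, no member) DESeq2 called 1713 genes and 3 members, no filter 580 genes, limma on log2(TPM + 1) 28, library totals 5, the offset 2, and the block without and with offset 0.

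Without single libraries, genes called ranged from 0 to 2739 before transplant (members 0 to 3), 0 to 5299 at day 7 (members 0 to 5), 1579 to 4156 between stages in WT (members 2 to 6), 5242 to 7114 in TCF-1 cKO (members 6 to 8) and 0 to 2093 in the interaction (members 0 to 3). The highest counts were without TCF-1 cKO pre-transplant replicate 3 before transplant, and without the library labelled WT day 7 replicate 3 at day 7, between WT stages and in the interaction. These counts are of fewer libraries.

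Among members, log2 fold changes of called differences turned only for limma on log2(TPM + 1) between stages in TCF-1 cKO (Il12rb1 -0.57, Ifngr1 -0.15) and relative to the CD8 T cell markers (Il18r1 -0.95 and Il18rap -0.65 in WT, and Il12rb1 -2.09, Il18r1 -1.13, Ifngr1 -2.22 and Stat4 -0.94 in TCF-1 cKO). Values that were not called turned more often. Relative to the CD8 T cell markers these were Il12rb1 (1.30), Il18rap (0.61), Il21r (0.38), Il10ra (0.72), Ifngr1 (0.79), Ifngr2 (0.86) and Stat4 (0.41) before transplant, Ifngr1 (0.20) and Ifngr2 (0.47) at day 7, Il12rb2 (-2.94), Ifngr1 (-1.63) and Stat4 (-2.09) between stages in WT, and Il12rb2 (-2.39) in TCF-1 cKO. In the other settings, before transplant, they were Il12rb1 (0.55 by limma on log2(TPM + 1), 0.050 with counts scaled from TPM), Il12rb2 (-0.18 with no filter, -0.62 with the offset, -0.52 with block and offset, -0.069 in 1 fit over all libraries) and Il18r1 (-0.27 with the offset, -0.24 with block and offset). At day 7 they were Ifngr2 (0.0057 with library totals) and Stat4 (-0.035 with the offset, -0.0079 with block and offset). Between stages in WT they were Il12rb2 (-0.66 with library totals, -0.40 by limma-voom, -0.74 by limma on log2(TPM + 1), -0.41 with the block), Il10ra (0.14 with the offset, 0.17 with block and offset), Ifngr1 (-0.013 with library totals, -0.29 by limma on log2(TPM + 1)) and Stat4 (-0.29 and -0.45 in the same settings). In TCF-1 cKO it was Il12rb2 (-0.21 and -0.16 in the same settings), and in the interaction Ifngr2 (-0.030 with counts scaled from TPM). Without single libraries the sign turned for Il12rb1 (-1.62 to 0.54) and Il12rb2 (-0.76 to 1.16) before transplant, Il6ra (-0.076 to 0.34) and Ifngr2 (-0.69 to 0.25) at day 7, Il12rb2 (-0.60 to 1.13) and Il21r (-0.69 to 0.36) between WT stages, and Il12rb2 in the interaction (-0.12 to 2.01). The causes were not tested.

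Ratios of chains moved in 3 cases, Il18rap to Il18r1 between stages in TCF-1 cKO (1.75 from estimated counts) and Ifngr2 to Ifngr1 between stages with TPM + 1 (-4.32 in WT, -4.04 in TCF-1 cKO). As shares of TPM in place of counts, main transcripts took 85.6% for Il12rb1 in WT day 7, 64.3% for Il12rb2 in TCF-1 cKO day 7, 49.1%, 51.7%, 46.9% and 38.9% for Il18r1 and 67.5%, 37.99%, 90.8% and 93.7% for Il18rap (WT and TCF-1 cKO pre-transplant, then WT and TCF-1 cKO day 7), 90.2% for Il6ra in WT pre-transplant, 71.9% for Ifngr1 in WT day 7, 62.3% and 81.7% for Ifngr2 in WT and TCF-1 cKO pre-transplant, and 72.1% for Stat4 in TCF-1 cKO day 7. Counting precision is low for Ifngr2 and Il6ra at day 7 (22 to 88 counts) and for Il12rb2 in WT day 7 replicate 2 (11 counts).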
